A study of Mus musculus with 2 samples.

Results

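The liver transcriptome of CREBH knockout mice was set against that of wild-type mice after a 24 h fast, and every measured gene is described by its KO over WT ratio. Genes entered when a probe with a RefSeq accession was well above background in both channels of the fasted array, which held for 12262 of 20270 named genes. The WT pool came from C57B6J mice and the KO pool from CREBH null mice on the C57B6J background, and both were deprived of food for 24 h. RNA of WT livers was pooled and labelled with Cy3, and RNA of KO livers was pooled and labelled with Cy5. The series also holds 1 array of the same genotypes fed ad lib, read here only where a fed ratio is set beside a fasted one. The sources used here do not give the age and sex of the mice or their number in each pool.

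CREBH, the product of Creb3l3, is a transcription factor of the CREB3 family that is anchored in the membrane of the endoplasmic reticulum. It moves to the Golgi, where proteases cut it, and its released part enters the nucleus and binds promoters of genes of lipid, apolipoprotein and glucose metabolism. In liver it is known for its activity in fasting, where it works together with PPARα on genes such as Fgf21, and for control of triglyceride clearance through apolipoproteins.

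With 1 pool per genotype on 1 array there is no replicate error, no test was possible, and a difference is a difference between these pools. The rule of size was a ratio of at least 2-fold in either direction, that is 1 on the log2 scale. By this rule 44 genes were higher, 0.359% of those measured, and 53 were lower, 0.432%, which makes 97 genes or 0.791%. At 1.5-fold the counts were 154 higher (1.26%) and 181 lower (1.48%). The median log2 ratio of all measured genes was 0.01, with 95% of genes between -0.46 and 0.46. The 97 genes lie outside that range by the rule that chose them. Between spots of probes printed 10 times, the ratio had a median SD of 0.08 over 258 probes, a spread that leaves out variation among mice, pools and labelling. KO was Cy5 on this array with no dye swap, so a dye effect of a gene and a difference between the genotypes cannot be told apart. Without loess, the split moved from 44 higher and 53 lower to 73 and 43 when ratios were centred on the measured genes, and to 940 and 16 when centred on all gene spots. The last of these raised the ratio of measured genes by a median of 0.59, so lists are compared with all measured genes under the same setting. With these centrings 42 and 44 of the 44 higher genes kept a 2-fold ratio, and 36 and 16 of the 53 lower ones. Ratios short of 2-fold are given as values after loess, and their sign can depend on it. Of 220 such genes followed under each setting, 37 changed sign with centring on the measured genes, of which Fbp1 (-0.49, then 0.06) was furthest from 0. With centring on all gene spots 90 changed sign, up to Apoa1 (-0.99, then 0.08). None of the 97 genes changed sign under any of the 8 alternative settings. Settings that changed only the filter on background left these ratios as they were. The mean of probes could move only genes with several measured probes.

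**Figure D1:**
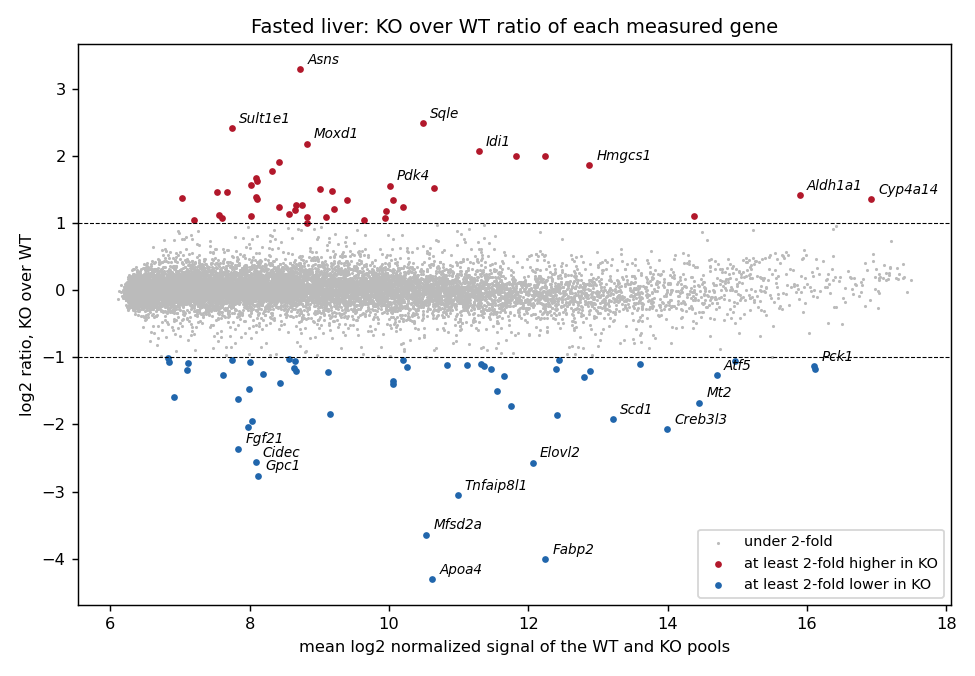
Log2 ratio of KO over WT against the mean log2 normalized signal of both pools, with 1 point for each of the 12262 measured genes and dashed lines at 2-fold. The 53 genes at least 2-fold lower in KO (blue) reach -4.31 for Apoa4, and the 44 higher (red) reach 3.30 for Asns.

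Creb3l3, the targeted gene, was lower in the KO pool. Its only probe read 33362 units of normalized signal in the WT pool and 7925 in the KO pool, a log2 ratio of -2.07. The scanner error was 0.28 for this spot. Errors, here and below, belong to the scanner's own log ratio (-2.09 for this spot), not to the ratio after loess. Signals are normalized intensities on a linear scale that include an offset of 50, which draws the ratio of dim genes towards 0. A clear signal was thus left in the KO channel. No source used here says which part of the gene was removed, so the probe may read RNA outside it. None of the other CREB3-family genes measured (Creb3, Creb3l1 and Creb3l2) was further from 0 than 0.08, the value of Creb3l2. The proteases that cut these factors were at -0.16 (Mbtps1) and 0.20 (Mbtps2). Of the 40 measured genes next to Creb3l3 on chromosome 10, taken 20 to a side, 1 was 2-fold apart, namely Gadd45b at 1.01, and their median was 0.02.

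The tissue label was checked against markers. All 13 hepatocyte markers were measured, among them Alb (159867 in WT and 181562 in KO) and Ttr (78528 in WT and 81164 in KO), and none was 2-fold apart, with a median of 0.17. Markers of Kupffer cells (14 genes, median 0.12), sinusoidal endothelium (13, 0.09) and stellate cells (13, 0.16) likewise held no gene 2-fold apart. Of all measured genes 0.791% were past 2-fold, so marker lists of this size without such a gene do not stand apart from the rest. Relative to all genes, the hepatocyte median ranged from -0.02 to 0.62 over the settings. In bulk RNA, fewer cells of a type and less RNA per cell cannot be told apart.

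Genes reported elsewhere as CREBH targets made up much of the lower end. Of 23 measured members of this list, 11 passed 2-fold on the lower side and none on the higher side, and the list's median was -0.99 against 0.01 for all genes. Relative to the median of all genes, it lay between -1.095 and -0.60 over the settings. The list was drawn from work on this factor and several members stand in the lists of lipid genes as well, so it is no independent evidence of direction.

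Apoa4, an apolipoprotein of chylomicrons and very low density lipoprotein, had the lowest ratio of all measured genes. It read 7019 units in the WT pool and 354 in the KO pool, a log2 ratio of -4.31 (error 0.47). Fabp2, the intestinal type of fatty acid binding protein, went from 19474 in WT to 1212 in KO (-4.01, error 0.43). Both also count as markers of intestinal epithelium. Of the 13 intestinal markers on the array, 9 were above background in neither channel, including Vil1, Cdx1, Cdx2, Sis and Alpi. The other measured members were Lgr5 (129 in WT and 172 in KO) and Tff3, a secreted trefoil peptide (421 in WT and 1077 in KO). Whereas Apoa4 and Fabp2 were lower, Tff3 was higher by 2.56-fold.

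Ratios of the other apolipoprotein genes were smaller. Apoa5, which promotes lipolysis of triglyceride-rich lipoproteins, read 3283 in WT and 1513 in KO (-1.12), and was at -0.91 with centring on the measured genes. Apoa1, the main protein of high density lipoprotein, lay just short of 2-fold, at 65224 in WT and 32939.9 in KO (-0.99), and was at 0.08 with centring on all gene spots. By contrast Apoc3, an inhibitor of lipolysis from the same gene cluster, read 84943 in WT and 97580.1 in KO (0.20). Gpc1, a glypican that carries heparan sulfate on the cell surface, was the second lowest gene of this group, with 728 units in WT and 107 in KO (-2.77, error 0.39). The HDL receptor Scarb1 was at -0.76 and Apob, the structural protein of very low density lipoprotein, at -0.63. Apoa2 (0.20) and Mttp (0.15) were near the median. In all, 3 of 27 measured genes of lipoprotein handling were past 2-fold on the lower side and none on the higher side. The list's median of -0.13 changed its side of the all-gene median between settings (-0.21 to 0.20), so it gives the list no direction.

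**Figure D2:**
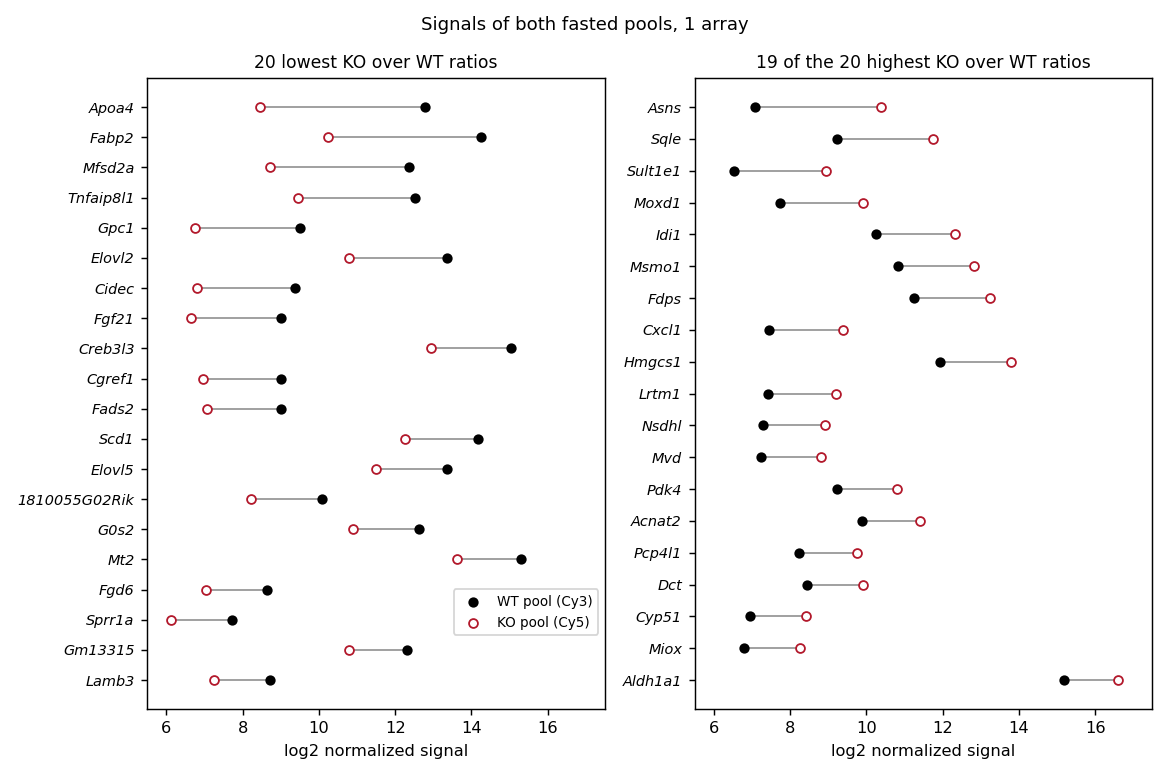
Log2 normalized signal of the WT pool (filled) and the KO pool (open) for the 20 genes with the lowest and 19 of the 20 with the highest KO over WT ratio, ordered by ratio. The widest gaps with WT above KO are those of Apoa4 (-4.31), Fabp2 (-4.01) and Mfsd2a (-3.64), and Aldh1a1 is the brightest of the higher genes drawn.

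The list of fatty acid elongation and desaturation, which also holds the lipid transporter Mfsd2a, had 5 of 16 members past 2-fold on the lower side and none on the higher side. Apart from Mfsd2a these were 4 enzymes, Elovl2, Elovl5, Fads2 and Scd1. Mfsd2a, the membrane transporter of lysophosphatidylcholine that carries polyunsaturated fatty acids, read 5256 in WT and 421 in KO (-3.64, error 0.41). Elovl2, which elongates polyunsaturated fatty acids of long chain, read 10424 in WT and 1757 in KO (-2.57). Elovl5, the elongase acting before it, read 10424 in WT and 2867 in KO (-1.86). The desaturases on that route were at -1.94 for Fads2 (516 in WT and 134 in KO) and -0.86 for Fads1 (2212 in WT and 1220.2 in KO). Each of these route members thus had the lower signal in the KO pool, with Fads1 short of 2-fold. Scd1, which makes monounsaturated fatty acids, read 18497 in WT and 4875 in KO (-1.92). Scd3 stood at -1.002 by the probe that was brighter over both arrays and at 0.27 by the other, which was the brighter on the fasted array, so its probes disagreed in sign. Elongases of saturated chains were nearer to 0, with Elovl6 at -0.09 and Elovl1 at 0.28, as were the dehydratases Hacd2 (0.12) and Hacd3 (0.43). The median of the list was -0.23, and relative to all genes it ranged from -0.25 to -0.13 over the settings.

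Lipid droplet genes divided into a few lower members and many near 0. Cidec, a protein of droplet fusion, read 660.5 in WT and 112 in KO (-2.56, error 0.38). G0s2, an inhibitor of the lipase ATGL, read 6285 in WT and 1900.2 in KO (-1.73). Plin4, a droplet coat protein, was at -0.84 and Mgll, which cleaves monoglyceride, at -0.54. The droplet coat genes Plin2 (28009 in WT and 31565 in KO) and Plin5 (7034 in WT and 8304 in KO) were at 0.17 and 0.24, and Pnpla2, which encodes ATGL, was at 0.14. Thus 2 of 16 members were 2-fold lower and none higher. Among 13 genes of triglyceride synthesis none was 2-fold apart, with Gpat4 the furthest at -0.70 (8769 in WT and 5392 in KO) and Dgat2 at 0.00.

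Fgf21, a hormone secreted by liver in fasting, read 518 in WT and 101 in KO (-2.36, error 0.36). Its receptor parts in liver, Klb (-0.18), Fgfr4 (-0.07) and Fgfr1 (-0.07), were not 2-fold apart. Bdh1, which converts acetoacetate to the ketone body hydroxybutyrate, was at -0.79 (15324 in WT and 8873 in KO), but at 0.15 with centring on all gene spots. Fgf21 was the 1 of 12 members of the ketone list past 2-fold. The list's median was -0.19, and -0.21 to -0.07 relative to all genes over the settings.

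Gluconeogenic genes had smaller ratios, most of them below 0. Pck1, the enzyme that commits oxaloacetate to glucose synthesis, read 104524 in WT and 47621 in KO (-1.13) and was the 1 of 22 members past 2-fold. Without loess that call was lost, with Pck1 at -0.60 when ratios were centred on the measured genes and at -0.03 when centred on all gene spots. G6pc, the final enzyme of glucose release, was at -0.87 (18429.5 in WT and 10115 in KO), the pyruvate carboxylase gene Pcx at -0.55 and Fbp1 at -0.49. The glucagon receptor gene Gcgr (-0.43), the transcription factor Foxo1 (-0.52) and the coactivator Ppargc1a (-0.39) lay on the same side. In all 19 of 22 ratios were below 0 and the median was -0.26. Relative to all genes the median ranged from -0.29 to 0.01, so without loess the list did not stand below the other genes. Sds, a serine dehydratase that feeds this pathway, was at -0.82 (8436 in WT and 4769 in KO). With centring on all gene spots G6pc was at 0.08 and Sds at 0.05.

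Fatty acid oxidation genes had list medians near 0, with single members further out. Of 24 mitochondrial members, Pdk4, a kinase that turns off pyruvate dehydrogenase, was 2-fold higher (599.6 in WT and 1773 in KO, 1.56), and none was 2-fold lower. Cpt1a, which admits long chain fatty acids to mitochondria, was at -0.82 (10850.5 in WT and 6126 in KO), whereas the matrix enzymes Acadm (-0.13), Acadl (0.05) and Hadha (-0.01) were near 0. The list's median was 0.05. In peroxisomes and the omega pathway Cyp4a14, a fatty acid hydroxylase under PPARα, read 77472 in WT and 199406 in KO (1.36, error 0.23). Its paralogs Cyp4a10 (0.96), Cyp4a31 (0.91) and Cyp4a32 (0.52) were below 2-fold, and probes for these near-identical genes may not tell them apart. Ehhadh, a peroxisomal oxidation enzyme, was at 0.88 (16995 in WT and 31255 in KO) and Vnn1, a pantetheinase, at 0.78. Ppara itself, the receptor that drives many of these genes, read 10764 in WT and 6453 in KO (-0.74), but was at 0.16 with centring on all gene spots. The count past 2-fold on the higher side, 1 of 23, was 5 with centring on the measured genes. The list of 23 peroxisomal genes had 5 members at least 1.5-fold higher and 1 lower, against 1.26% and 1.48% of all genes. Its median was 0.10, and 0.07 to 0.49 relative to all genes over the settings.

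Among genes of fatty acid uptake and activation, Fabp2 was 2-fold lower and Fabp4, a fatty acid binding protein of adipocytes and macrophages, 2-fold higher (671 in WT and 1708 in KO, 1.35). Of 10 adipocyte markers on the array, 5 were above background in neither pool (Adipoq, Retn, Lep, Plin1 and Ucp1), and Cfd and Cidea were above it only in the WT pool. The log2 of the summed signal of the 3 measured adipocyte markers was 13.29 in WT and 13.52 in KO. Most of that sum came from Car3 and it includes Fabp4 itself, so it is no separate measure of adipocyte content. For Kupffer cell markers the log2 of the sum was 14.35 in WT and 14.42 in KO. The part of either cell type in the Fabp4 ratio was not tested. The main liver form Fabp1 was at 0.42 (100596 in WT and 134188 in KO) and Fabp7 at 0.91. The acyl-CoA synthetases Acsl4 (0.82) and Acsl3 (0.77) and the thioesterases Acot2 (0.81) and Acot1 (0.56) were above 0 and short of 2-fold.

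Cholesterol synthesis enzymes were the largest group of higher genes. Of 11 genes from acetyl-CoA to squalene epoxide 6 passed 2-fold on the higher side, and of 11 from there to cholesterol 4 did so, with none past 2-fold on the lower side in either list. The medians were 1.25 and 0.77 against 0.01 for all genes. Relative to all genes they ranged over the settings from 1.17 to 1.40 and from 0.76 to 0.91.

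The pathway begins with Acat2, which read 2604 in WT and 2986 in KO (0.20). Hmgcs1, the cytosolic synthase of the next step, read 3922 in WT and 14300.4 in KO (1.87). Mevalonate is phosphorylated by Mvk (768 in WT and 1819.9 in KO, 1.25) and Pmvk (1880.0 in WT and 3699 in KO, 0.98). Decarboxylation by Mvd was at 1.57 (151 in WT and 449.6 in KO) and the isomerase Idi1 at 2.08 (1216 in WT and 5128 in KO). Fdps, which makes farnesyl diphosphate, read 2425 in WT and 9692 in KO (1.999). At this branch point Ggps1, which leads away from sterols to geranylgeranyl diphosphate, was at -0.08 (197 in WT and 187 in KO), the lowest ratio of the list. Fdft1, the squalene synthase, was at 0.98 (1174 in WT and 2312 in KO). Sqle, the epoxidase that commits squalene to sterols, had the highest ratio of the pathway, with 606 units in WT and 3413 in KO (2.49, error 0.33).

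After the ring closes, ratios were uneven. The cyclase Lss was at 0.77 (200.4 in WT and 342 in KO) and Cyp51, the lanosterol demethylase, at 1.48 (123 in WT and 342 in KO). Both reductases that can act on the next double bond, Tm7sf2 (0.23) and Lbr (0.22), stayed near 0. Msmo1, the sterol methyl oxidase, read 1810.0 in WT and 7260.2 in KO (2.004). Nsdhl was at 1.63 by its brighter probe and 0.86 by the other, and Hsd17b7 at 0.90. Of the late enzymes Ebp was at 0.17, Sc5d at 0.53 and Dhcr7 at 1.09 (311 in WT and 663 in KO). All 11 ratios of this list were above 0. Ebp was bright (27480.3 in WT and 30897 in KO) and had a small ratio, so ratios were unequal along the pathway. In the fed pools all 22 ratios were below 0 after loess, with list medians of -0.36 and -0.23. Some were close to 0, such as Lbr (-0.002) and Tm7sf2 (-0.006). Fed ratios were not followed under the other settings, so their signs can depend on loess. The share of all genes below 0 fed is not given here. Among other lists, interferon and antigen presentation had 36 of 36 fed ratios below 0, and endoplasmic reticulum chaperones 0 of 30. The difference between the feeding states was not tested.

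**Figure D3:**
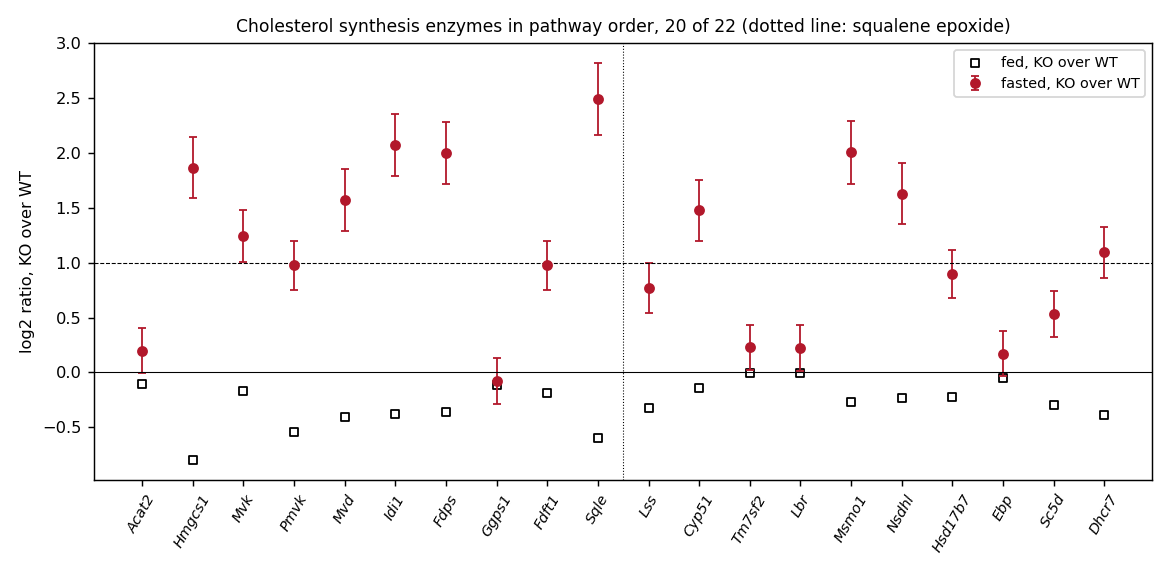
Log2 ratio of KO over WT for 20 of the 22 cholesterol synthesis genes in pathway order, fasted (filled) and fed (open squares, 1 array). Bars on fasted points are the scanner software's error of its own ratio for the spot, not of the ratio drawn. Fasted ratios run from -0.08 for Ggps1 to 2.49 for Sqle, and every fed ratio lies below 0.

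The genes that control sterol levels included 3 more higher members among 18. Insig1, which holds SREBP in the endoplasmic reticulum, read 222 in WT and 527 in KO (1.25), while its relative Insig2 was at -0.57 (7883 in WT and 5323 in KO). Stard4, a sterol carrier, was at 1.18 by its brighter probe and at 0.52 by the other. The transcription factor gene Srebf2 was at 0.61 by its brighter probe (165 in WT and 252 in KO) and at -0.01 by the other. The exporters Abcg5 and Abca1 were at -0.21 and 0.21. Ratios past 2-fold were thus seen among control genes as well as among the enzymes.

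The Hmgcs1 promoter shows the SREBP element (TCACNCCAC, searched on both strands), in capitals below, in a run of 60 bases upstream of the start, on the plus strand at chr13:119690188-119690247 (RefSeq, GRCm38.p6).
Hmgcs1: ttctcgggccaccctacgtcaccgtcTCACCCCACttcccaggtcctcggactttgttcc
Among RefSeq promoters of 250 bases before to 50 after a start, this element was in 1 of 20 promoters of the cholesterol lists (5.0%) and in 1.19% of 12438 promoters of measured genes. The NF-Y box CCAAT was in 16 of those 20 promoters (80.0%) and in 37.4% of all. A match is a run of letters, not a site shown to be bound, and other spellings of these elements were not searched.

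Fatty acid synthesis genes had ratios mostly above 0, none past 2-fold. Aacs, which turns acetoacetate into precursors, was at 0.93 (272 in WT and 519 in KO), Thrsp at 0.82 (609.6 in WT and 1078 in KO) and Fasn at 0.76 (102 in WT and 173 in KO). Fasn signals were dim, where the offset shrinks ratios. Acaca was at 0.39 and Acly at 0.22, while their other probes were at -0.15 and -0.01. The transcription factors Srebf1 (-0.23) and Mlxipl (-0.15) were below 0. Of 18 members 15 were above 0 and 5 were at least 1.5-fold higher, with a median of 0.39. Relative to all genes it ranged from 0.24 to 0.54. Slc13a5, a citrate transporter of this list, was above background only in the WT pool, and was at least 2.498-fold lower in KO. That bound sets the WT signal against the higher of the dimmest signal called above background in the KO channel and the probe's own KO signal, and is open to dye bias. Gdpd3, a lysophospholipase D gene of the phospholipid list, had the other bound past 2-fold, at least 3.30-fold lower.

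Genes of the amino acid response passed 2-fold in both directions. ATF4 and its partners bind C/EBP-ATF elements of genes for amino acid supply and stress. Asns, which makes asparagine, had the highest ratio of all measured genes, with 135 units in WT and 1326 in KO (3.30, error 0.45). Gdf15, a stress hormone, read 260.4 in WT and 631 in KO (1.28) and Ddit3, the factor CHOP, 182 in WT and 315 in KO (0.79). Atf5, a related factor of hepatocytes, was lower (41421 in WT and 17218 in KO, -1.27), and so was Chac1, which degrades glutathione (373 in WT and 178 in KO, -1.06). With centring on the measured genes Atf5 was at -0.82. Atf4 itself was at 0.30, Trib3 at -0.31 and Slc38a2 at -0.37. Psat1, of serine synthesis, was above background only in the KO pool, at least 1.71-fold higher. Altogether 2 of 28 measured members were 2-fold higher and 2 were lower, with a median of 0.07.

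An element shared by ATF4 and C/EBP (TGATGNAA, searched on both strands) stood in promoters of 4 higher and 5 lower genes, and all 9 are shown to compare its spelling on both sides of the comparison. Capitals mark the element, and each run is 60 bases of the RefSeq promoter read along the gene's own strand (GRCm38.p6).
Asns: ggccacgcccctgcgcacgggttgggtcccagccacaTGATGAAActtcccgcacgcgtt
Sult1e1: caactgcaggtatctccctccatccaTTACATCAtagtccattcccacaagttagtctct
Idi1: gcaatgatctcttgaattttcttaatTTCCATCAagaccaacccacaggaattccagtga
Gna14: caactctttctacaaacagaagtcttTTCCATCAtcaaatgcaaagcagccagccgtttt
Fgf21: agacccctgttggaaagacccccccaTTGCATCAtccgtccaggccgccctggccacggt
Chac1: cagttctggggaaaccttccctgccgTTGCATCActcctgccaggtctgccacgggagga
Inhbe: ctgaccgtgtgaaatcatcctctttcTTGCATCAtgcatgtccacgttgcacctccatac
Gadd45g: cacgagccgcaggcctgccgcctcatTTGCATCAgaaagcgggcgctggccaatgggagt
Cyp3a11: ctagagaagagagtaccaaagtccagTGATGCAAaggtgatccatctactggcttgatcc
The Asns run is chr6:7693210-7693269 on the minus strand, that of Fgf21 chr7:45615596-45615655 on the minus strand and that of Chac1 chr2:119351023-119351082 on the plus strand. Those of Inhbe and Gadd45g are chr10:127351996-127352055 on the minus strand and chr13:51846548-51846607 on the plus strand. The runs of Sult1e1, chr5:87591647-87591706, and Cyp3a11, chr5:145879920-145879979, are on the minus strand. Those of Idi1, chr13:8885399-8885458, and Gna14, chr19:16435456-16435515, are on the plus strand. Asns, Sult1e1, Idi1 and Gna14 (1.13), a G protein subunit, were higher in the KO pool, and Fgf21, Chac1, Inhbe, Gadd45g and Cyp3a11 were lower. The element is read along the gene in Asns (TGATGAAA) and Cyp3a11 (TGATGCAA). It is read on the opposite strand in Fgf21, Chac1, Inhbe and Gadd45g (TTGCATCA), in Idi1 and Gna14 (TTCCATCA) and in Sult1e1 (TTACATCA), so both orientations occur on both sides. The RefSeq promoter table matched 35 of the 44 higher and 44 of the 53 lower genes by gene ID, some with more than 1 promoter. Among promoters of the 44 higher genes 4 of 43 held the element (9.3%), among those of the 53 lower genes 5 of 57 (8.77%), and among all measured genes 2.45%. The share on the list of amino acid response genes was 25.9%, or 7 of 27 promoters.

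Inhbe, the activin E subunit secreted by hepatocytes, read 3892 in WT and 1791 in KO (-1.12). Gadd45g, a growth arrest gene also induced by glucocorticoids, read 11172 in WT and 4566 in KO (-1.29), while its relative Gadd45b read 319 in WT and 643 in KO (1.01). With centring on the measured genes Inhbe was at -0.90 and Gadd45g at -0.97. Cell cycle genes were near 0, as Mki67 (0.34), Pcna (-0.01) and Cdkn1a (-0.26) show. The 2 Gadd45 genes were the only members of that list of 23 past 2-fold.

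Chaperone and degradation genes of the endoplasmic reticulum had small ratios, most of them above 0. Of 31 measured members 28 were above 0, with a median of 0.31 and a range relative to all genes of 0.27 to 0.48 over the settings. Derl3, which exports misfolded proteins for degradation, was the 1 member past 2-fold (388 in WT and 899 in KO, 1.21), against 2 with centring on the measured genes. The chaperones Hspa5 (18700.5 in WT and 31406 in KO, 0.75) and Hsp90b1 (11336 in WT and 17119 in KO, 0.59) and the cochaperone Sdf2l1 (0.76) followed. Xbp1, a transcription factor of this response, was at 0.15 and Herpud1 at 0.00. Cytosolic ribosomal protein genes also lay above 0 in 30 of 32 cases (median 0.19, 0.16 to 0.63 relative to all genes), none of them by 2-fold.

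**Figure D4:**
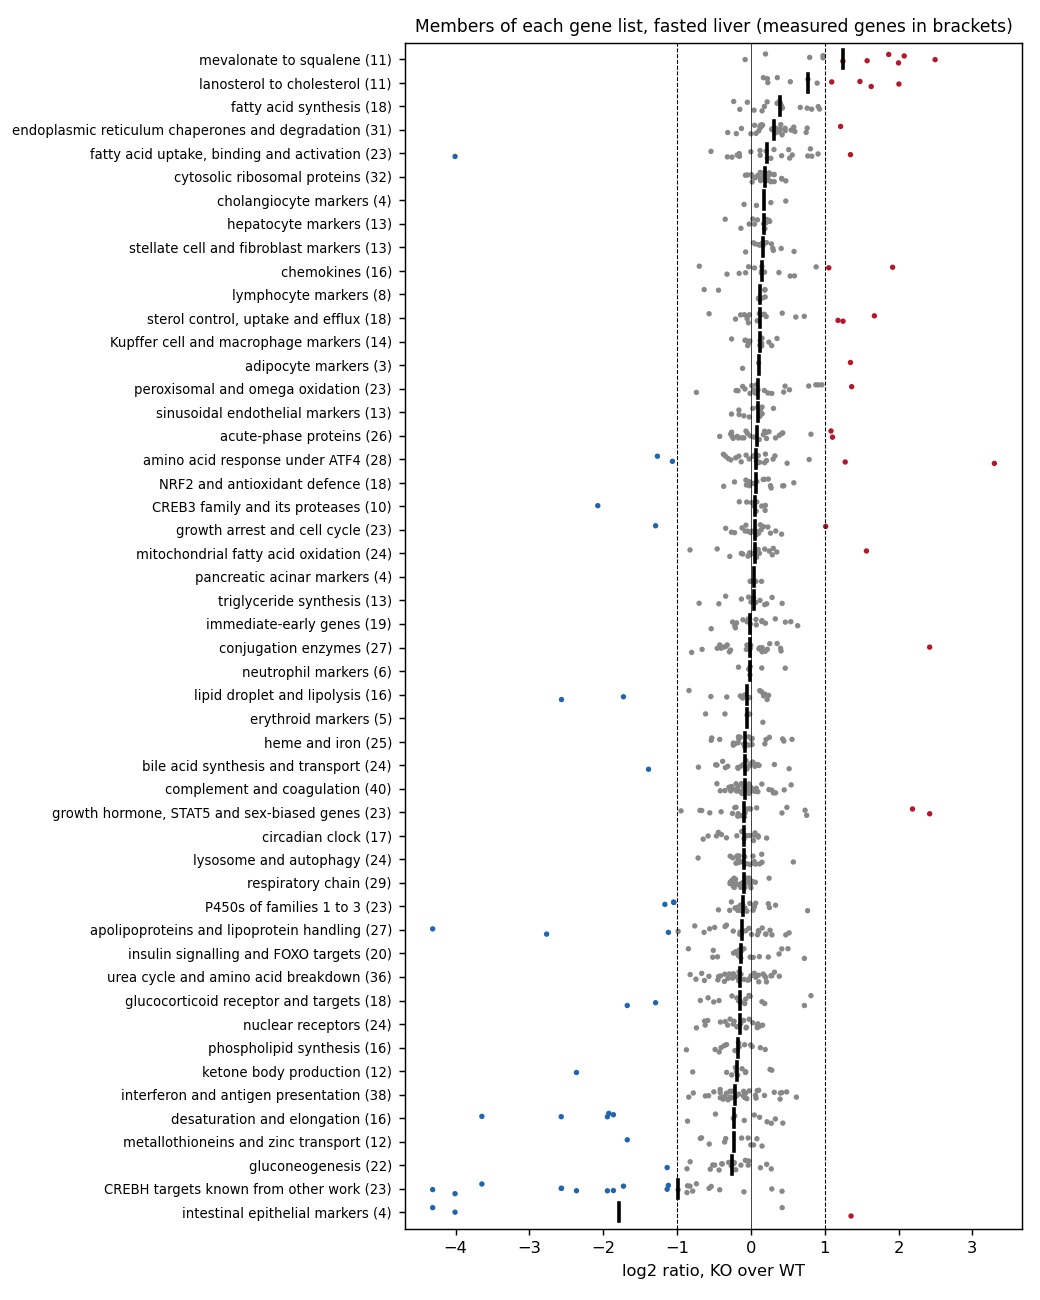
Log2 ratio of KO over WT of each measured member of the gene lists and marker lists with at least 3 measured genes, ordered by the list's median (black bar), with dashed lines at 2-fold. The 2 cholesterol lists stand at the top with medians of 1.25 and 0.77, and the lists of CREBH targets (-0.99) and intestinal markers at the bottom.

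Metallothioneins bind zinc and are induced by glucocorticoids and metals, and 1 of 12 members of that list was 2-fold lower. Mt2 read 40053 in WT and 12547 in KO (-1.67) and Mt1 52243 in WT and 32491 in KO (-0.69). The zinc importers Slc39a4 (-0.67) and Slc39a14 (-0.56) were below 0 and short of 2-fold. Other glucocorticoid targets lay on both sides of 0, with Per1 at -0.58, Fkbp5 at -0.08 and Tsc22d3 at -0.03, but Lcn2 at 0.81 and Depp1 at 0.72. On the glucocorticoid list 4 ratios were above 0 and 14 below. Of 18 genes of the glucocorticoid list, Mt2 and Gadd45g alone were 2-fold apart. Clock genes held no member past 2-fold among 17. Dbp was at -0.65 (5144 in WT and 3285 in KO), Tef at -0.47 and Nr1d1 at 0.21.

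Genes known to differ between the sexes under growth hormone included 2 of the highest ratios. Sult1e1, the oestrogen sulfotransferase, was dim in the WT pool and read 92.6 in WT and 496 in KO (2.42, error 0.42). Moxd1, a monooxygenase-like gene, read 212 in WT and 965 in KO (2.19). Socs2, a feedback inhibitor of this pathway, was at -0.95 (354 in WT and 184 in KO) and Cish at -0.69. Igf1 was at 0.08, the repressor Bcl6 at 0.75 and the urinary protein gene Mup20 at 0.73. The 23 members had a median of -0.09, which changed its side of the all-gene median between settings (-0.15 to 0.08).

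Acute-phase genes had ratios on both sides of 0, with 14 of 26 above it and 12 below. Bright members lay on both sides, as Hp (0.39) and Fgg (-0.26) show. Saa3, a serum amyloid gene expressed in macrophages and other cells, read 678 in WT and 1436 in KO (1.08), Orm3 178 in WT and 382 in KO (1.11) and Lcn2 2229 in WT and 3916 in KO (0.81). The main hepatocyte forms Saa1 (95413 in WT and 80807 in KO) and Saa2 (63157 in WT and 57955 in KO) were at -0.24 and -0.12. Among chemokines Cxcl1, which attracts neutrophils, read 176 in WT and 665 in KO (1.92), Cxcl14 102 in WT and 213 in KO (1.05) and Ccl2 92.2 in WT and 170.1 in KO (0.88). Beside these, 6 of 12 neutrophil markers were above background in neither pool, among them Mpo and Ltf. The measured ones included S100a8 (0.46) and S100a9 (-0.01), and the log2 of their summed signal, most of it from Csf3r, was 14.23 in WT and 14.22 in KO. The part of such cells in the chemokine ratios was not tested. Counts past 2-fold were 2 of 26 acute-phase genes and 2 of 16 chemokines, all higher. With centring on the measured genes Cxcl14 was at 0.87.

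No interferon or antigen presentation gene was 2-fold apart among 38. Ifi47 (1271 in WT and 709 in KO, -0.84) and Irf7 (290.5 in WT and 169 in KO, -0.78) were lowest and the MHC class II genes H2-Ab1 (0.62) and H2-Eb1 (0.48) highest. The median was -0.22, and -0.29 to -0.15 relative to all genes over the settings.

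Drug-metabolising P450 genes held 3 lower members among 23, and none of the 3 was 2-fold lower when ratios were centred without loess. Cyp3a11, a main steroid and drug hydroxylase, read 46192 in WT and 22356 in KO (-1.05), and its other probe was at -1.19. Cyp3a16 read 8116 in WT and 3619.8 in KO (-1.16), and Cyp3a59, which is outside the list, was at -1.20. These paralogs are alike in sequence, so their probes may read each other's transcripts. With centring on the measured genes Cyp3a11 was at -0.59, Cyp3a16 at -0.88, Cyp2c37 at -0.75 and Cyp3a59 at -0.88. The list's median was -0.11, and -0.16 to 0.18 relative to all genes over the settings. After loess Cyp2c37 was at -1.04 by its brighter probe but at -0.10 by the other. The nuclear receptor Nr1i2, which controls Cyp3a genes, read 2275 in WT and 1481 in KO (-0.62), and Nr1i3 was at 0.11. In bile acid synthesis Cyp7a1, the rate-limiting enzyme, was at -0.71 (744 in WT and 454 in KO) and Cyp8b1 at -0.46. Slco1a4, an organic anion importer, was the 1 of 24 bile acid genes past 2-fold (558 in WT and 214 in KO, -1.39). Among nuclear receptors, none of 24 was 2-fold apart, and Ppara, Pparg (-0.63) and Nr1i2 were the lowest. Their median was -0.15, and -0.20 to -0.05 relative to all genes.

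Several lists held no gene past 2-fold. Of all measured genes 0.791% were past it, so lists of this size without such a gene do not stand apart from the rest. They were those of the urea cycle and amino acid breakdown (36 genes, median -0.15), insulin signalling (20, -0.13), complement and coagulation (40, -0.09), heme and iron (25, -0.08), antioxidant defence (18, 0.06), lysosome and autophagy (24, -0.10) and the respiratory chain (29, -0.10). Gls2, a liver glutaminase, was at -0.74 (13670.2 in WT and 8159 in KO) and Asl, of the urea cycle, at -0.67 (15692 in WT and 9883 in KO). The phospholipid list was also without a measured member past 2-fold. Pcyt2, which makes the donor for phosphatidylethanolamine, came nearest (37131 in WT and 20265 in KO, -0.87, and 0.14 with centring on all gene spots), and the list's median of -0.18 ranged from -0.24 to -0.18 relative to all genes.

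Some of the largest ratios belonged to genes outside the lists. Tnfaip8l1, of the TNFAIP8 family, had the fourth lowest ratio, with 5850.4 in WT and 704 in KO (-3.06, error 0.36). Cgref1, a secreted growth regulator, read 511 in WT and 124 in KO (-2.04) and 1810055G02Rik 1080.4 in WT and 299.7 in KO (-1.85). Fgd6, a guanine nucleotide exchange factor, read 400.3 in WT and 131 in KO (-1.62). Sprr1a, a cornified envelope gene, had a dim KO signal (210.2 in WT and 69.9 in KO, -1.59). Gm13315, listed with a non-coding accession, read 5068 in WT and 1785 in KO (-1.51), and the laminin gene Lamb3 422 in WT and 153 in KO (-1.46). On the higher side Lrtm1 read 172 in WT and 592 in KO (1.79) and Acnat2, an acyltransferase of peroxisomes, 948 in WT and 2729 in KO (1.53). Pcp4l1 read 304 in WT and 867 in KO (1.51), and Dct, known from melanin synthesis, 347 in WT and 970.1 in KO (1.49). Miox, which opens the inositol ring, read 111 in WT and 307 in KO (1.47). Aldh1a1, a retinaldehyde dehydrogenase, was bright in both pools (37212 in WT and 99698 in KO, 1.42).

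The following genes fell outside the rule for named genes and were chosen after their values were seen. Ldha, the lactate dehydrogenase subunit, had 3 measured probes, at -1.17, -1.34 and -1.45, and its brightest read 106419 in WT and 47252 in KO. Slc25a25, a mitochondrial carrier of ATP-Mg and phosphate, read 5016 in WT and 2078 in KO (-1.27), with -1.11 by its other probe. Noct, the rhythmic gene nocturnin, read 1702 in WT and 666 in KO (-1.35). Impa2, an inositol phosphatase, was at -1.25 and Itpka, an inositol trisphosphate kinase, at -1.26. Slc22a7, an organic anion transporter, read 1684 in WT and 823 in KO (-1.03). With centring on the measured genes Ldha was at -0.63 and Slc22a7 at -0.88. Rnase4, a secreted ribonuclease, was among the bright higher genes (14409.7 in WT and 31239 in KO, 1.12).

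A full cyclic AMP response element (TGACGTCA) stood in 1 of the 3 RefSeq promoters of Slc25a25, in 1 of the 2 of Ldha and in 1 of the 2 of Meg3, a non-coding RNA gene that was higher in the KO pool (1.07). It is shown in capitals because CREB-type factors are known to bind this sequence.
Slc25a25: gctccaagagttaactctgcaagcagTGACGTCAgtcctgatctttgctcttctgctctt
Ldha: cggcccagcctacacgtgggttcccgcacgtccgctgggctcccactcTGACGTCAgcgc
Meg3: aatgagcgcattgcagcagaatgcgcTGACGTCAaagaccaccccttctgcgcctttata
The runs are chr2:32424183-32424242 on the minus strand, and chr7:46845744-46845803 and chr12:109540913-109540972 on the plus strand of GRCm38.p6. The other carrier was the lower gene Elovl5, with the element just after its start site. The element was in 3 of 57 promoters of the lower genes (5.26%), in 1 of 43 of the higher genes (2.33%) and in 2.9% of promoters of all measured genes. The related spelling TGACGTGG was in no promoter of the 97 genes and in 0.772% of all. That says only that these letters are not in these windows.

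Where a gene had several measured probes, they were compared. This held for 15 of the 97 genes. All probes passed 2-fold for 3 of the 6 higher genes and 6 of the 9 lower genes. Probes disagreed most for Tmem41b (0.21 and 1.37), Scd3, Cyp2c37, Nsdhl (1.63 and 0.86) and Pgm3 (-1.02 and -0.29). These calls thus rest on the probe that was brighter over both arrays. At the 2-fold limit, the values just inside were Gadd45b (1.01) and Scd3 (-1.002), and those just outside were Fdft1 (0.98), Pmvk (0.98), Fam25c (-0.99) and Apoa1 (-0.99). Scanner errors, which belong to the scanner's own log ratio of each spot, lay between 0.22 and 0.47 for the 97 genes. The scanner's ratio could differ from the one printed here by more than this error, as for Sult1e1 (2.42 here, 3.85 by the scanner, error 0.42). Genes next to the limit are thus not separated from it.

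**Figure D5:**
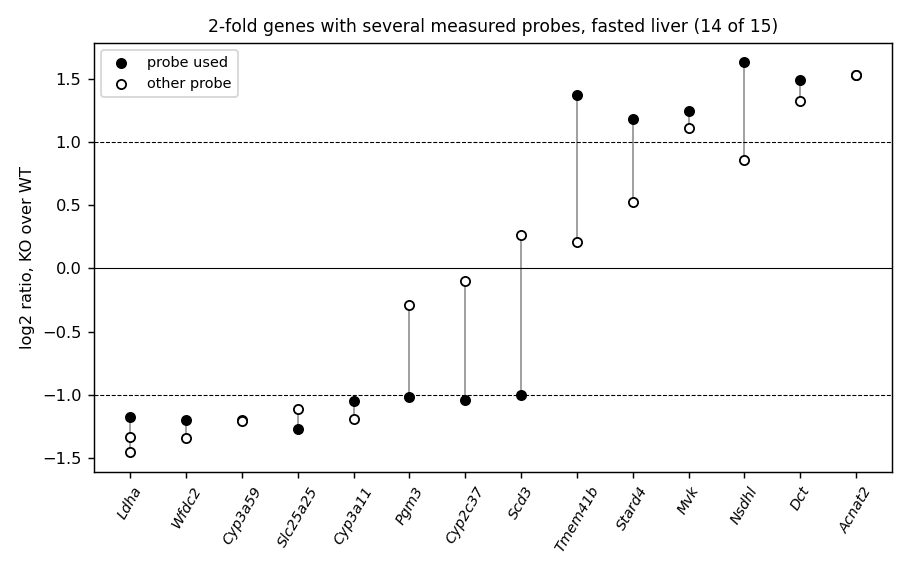
Log2 ratio of KO over WT for each measured probe of 14 of the 15 genes past 2-fold that have several, with the probe used filled, other probes open and dashed lines at 2-fold. The probes of Acnat2 and Ldha lie close together, while those of Scd3 lie on both sides of 0.

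Set beside the fed array, most of the fasted 2-fold genes had small fed ratios. Of the 53 lower genes, all were measured fed and the median fed ratio was -0.19, with 3 at least 2-fold lower there too. Of the 44 higher genes 43 were measured fed, with a median of 0.16 and 3 at least 2-fold higher. Those lower on both arrays were Mfsd2a (-2.33 fed), Mt2 (-2.67) and Gadd45g (-1.78). Those higher on both were Asns (2.19 fed), Moxd1 (4.13) and Cxcl14 (1.74). The fed ratio lay on the same side of 0 for 37 of the 53 lower genes and for 26 of the 43 higher ones. The shares of all measured genes that were 2-fold apart fed, or on the same side of 0 on both arrays, are not given here. Whether the overlap of these genes between the arrays exceeds that of other genes was thus not tested. Elovl2 was at -0.34 and Fgf21 at -0.52 fed, and G0s2 was at 0.28. Each array is 1 pair of pools, so the difference between feeding states was not tested.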

How the data were processed

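Pooled total liver RNA of each genotype was hybridised to an Agilent array, WT in Cy3 and KO in Cy5, 1 array per feeding state. Spot and background intensity (pixel medians) were deposited as read by Agilent Feature Extraction 10.10.1.1, per the file headers. That software also wrote the deposited log10 ratio, Cy5 over Cy3, and its error, after background subtraction and dye normalization, per the file headers. The authors' value table of log2 ratios matched it to within 0.005, with a median of 0.00. The value table was thus not shifted further by more than 0.005.

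Median signals were corrected with normexp (offset 50) and normalized by loess with control spots at weight 0 (limma 3.58.1, R 4.3.3). Channel levels were then scaled between arrays with Aquantile. The correction and loess were tested on a simulated array without control spots, and the scaling between arrays was not tested. Control spots (3671) and 197 outlier spots were dropped, and none of the gene spots was saturated. Above background were 45.9% of WT and 45.8% of KO spots. Unversioned RefSeq accessions were named through the GRCm38.p6 table, for 26747 of 55681 probes. The array grid names mm9 per the file headers, so coordinates are those of RefSeq promoters only. A gene was measured when at least 50% of its probe's spots were well above background in each channel, and of several probes the one brightest over both arrays was taken. The number of arrays limits the precision.

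Named were Creb3l3, the 20 highest and 20 lowest genes, genes past 2-fold in a list, up to 6 members of each list furthest from 0, bounds, and all members of lists given in pathway order. Some genes under this rule are not reported here, though counts and medians include them. Genes and lists were chosen with earlier results of these data known. Alternatives were the scanner ratio, 2 centrings, other background corrections, filters and the mean of probes.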

Additional observations from a re-analysis of the deposited data

Results flagged for a closer look

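Apoa4, Cyp4a14 and Sprr1a were past 2-fold on both arrays with opposite signs. Apoa4 was at -4.31 (log2, KO over WT) in the fasted pools and at 1.68 in the fed pools. Cyp4a14 was at 1.36 fasted and -3.77 fed. Sprr1a was at -1.59 fasted and 1.15 fed. With 1 array per feeding state, the difference between the states was not tested.

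Probes without a gene name were not used in the report. Among 8098 such probes above background in both channels of the fasted array, 11 passed 2-fold on the higher side in KO and 20 on the lower side.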

How the results depend on the processing

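No paired analysis was possible because each group is 1 pool, and for the same reason no replicate could be left out. Creb3l3, at -2.07, was at -1.68 with ratios centred on the measured genes and at -1.11 with centring on all gene spots, and between -2.09 and -2.05 under the other settings. The count of higher genes, 44, was 88 with the scanner's own log ratio, 73 with centring on the measured genes and 940 with centring on all gene spots. The count of lower genes, 53, was 105 with the scanner's ratio, 16 with centring on all gene spots and 86 with a normexp offset of 1. The scanner's ratio kept all 44 higher genes and 52 of the lower ones, centring on the measured genes kept 42 and 36, and centring on all gene spots kept 44 and 16. The share of higher genes among the calls was 45.4%, 62.9% with centring on the measured genes and 98.3% with centring on all gene spots. The cause was not tested. None of the 97 genes past 2-fold changed sign, though the filter settings could not change a sign and the mean of probes could do so for few of them. Relative to all genes, the medians of 22 of 50 lists stood on both sides of 0 over the settings, and of 7 without the 2 centrings. Among the 22 were gluconeogenesis (-0.29 to 0.01) and the P450 genes (-0.16 to 0.18). Of 220 followed genes short of 2-fold, 37 changed sign with centring on the measured genes, 90 with centring on all gene spots and at most 2 under each other setting. Signal over background limits dim genes: among the dimmest measured genes (the lowest of 3 equal groups by signal), 2 were 2-fold higher and 5 lower.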
